A study of Oryza sativa Japonica Group with 24 samples.

Results

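The starch branching, debranching and phosphorylase genes are 9 rice loci that build, trim or shorten the branched chains of starch. They were taken as a fixed list of locus IDs: the branching enzymes *BEI* (LOC_Os06g51084), *BEIIa* (LOC_Os04g33460) and *BEIIb* (LOC_Os02g32660), the debranching enzymes *ISA1* (LOC_Os08g40930), *ISA2* (LOC_Os05g32710), *ISA3* (LOC_Os09g29404) and *PUL* (LOC_Os04g08270), and the phosphorylases *PHOL* (LOC_Os03g55090) and *PHOH* (LOC_Os01g63270). Of the 9 genes, 8 had read counts among the 55986 loci of the count table, and *PUL* was not analysed here. RNA-seq had been run on whole anthers of the *japonica* variety 9522, grown in paddy fields and sampled by anther length at mitosis I of the pollen, to ask how day length shapes anther transcripts. In SD (short day), a cover of black cloth late in the day shortened daylight to 12 h. In LD (long day), plants had the natural daylight of about 14 h. Both photoperiods were sampled every 4 h at 6 time points, the first at 08:00 and the last at 04:00, with 2 biological replicates in each of the 12 groups, and no genotype other than this variety was used. Whether the replicates came from separate plants or plots is not given in the sources used here, so p-values measure the spread between the samples as collected.

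Starch is laid down in the plastids of developing pollen and is the reserve that fuels germination. Starch synthases lengthen linear glucan chains, branching enzymes cut such chains and rejoin the cut end as a side branch, and debranching enzymes remove misplaced or unwanted branches. Phosphorylases act at chain ends in a reversible reaction, with separate plastidial and cytosolic forms, and other enzymes (disproportionating enzymes, glucan dikinases and amylases) take part when starch is broken down.

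The 24 libraries held 18043740 to 27529649 counts, so that 1 CPM (the depth-scaled count, corrected by TMM for library composition) stood for 17.3 to 28.5 counts. All 8 genes were well covered, with 245 to 66191 counts in each library. The SD 12:00 libraries stood apart. Summed over 7 pollen genes, they held 4.08 and 1.46 CPM, against 3987 and 5223 CPM in the LD 12:00 libraries, while the other SD libraries held 109 to 1159 CPM and the other LD libraries 1031 to 6038 CPM. *OsMADS63*, a pollen MADS-box gene of that list, averaged 0.118 CPM in SD and 113 CPM in LD at 12:00, so this pollen gene was near 0 in the SD 12:00 anthers. Summed over 8 tapetum and exine genes, SD libraries held 2152 to 5267 CPM and LD libraries 791 to 1850 CPM, which did not overlap, but LOC_Os11g37280 made up 58.1% to 87.9% of the sum, and without it SD libraries held 382 to 1638 CPM and LD libraries 254 to 396 CPM, which overlapped. Of these tapetum and exine genes, 6 were called higher in SD anthers over the 6 time points, whereas LOC_Os02g02820 had a log2 fold change of -0.67 and LOC_Os04g51070 of -0.36. All 3 green tissue genes were called higher in SD at 12:00 (summed, 1055 and 1062 CPM in SD and 315 and 426 CPM in LD). At 20:00, 2 of them were called higher in SD, while 1 was called lower at 08:00 and 2 at 04:00. The clock gene *OsCCA1* had its highest mean at 08:00 in SD and at 04:00 in LD, but at 12:00 it averaged 454 CPM in SD and 82.5 CPM in LD. Of 7 clock genes, 2 were called higher in SD at 12:00 (*OsCCA1* and *OsPRR95*) and 1 lower (*OsLUX*). The highest means of *OsTOC1* and *OsPRR73* came at the same time in both photoperiods, and those of *OsGI*, *OsPRR37*, *OsPRR95* and *OsLUX* did not. In whole anthers, fewer cells of a type and less RNA per cell cannot be told apart. Photoperiod and the makeup of the anthers also cannot be told apart, and the tests over several time points are also given without the 12:00 libraries.

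Averaged over the 6 time points, 4 of the 8 genes were down-regulated in SD anthers and none was up-regulated at an edgeR adjusted p under 0.05 and a change of at least 2-fold, the thresholds used for every call between photoperiods. Log2 ratios and log2 fold changes are those of the edgeR fit, SD over LD, and ± gives the standard error. Of all 25498 loci tested, 16.4% were called in either direction. The 4 genes were *PHOH*, 5.94-fold lower (log2 ratio -2.57 ± 0.22, adjusted p = 2.03e-07 by edgeR); *ISA3*, 3.77-fold lower (log2 ratio -1.92 ± 0.17, adjusted p = 3.04e-07 by edgeR); *BEIIb*, 2.66-fold lower (log2 ratio -1.41 ± 0.12, adjusted p = 1.88e-07 by edgeR); and *ISA2*, 2.54-fold lower (log2 ratio -1.34 ± 0.12, adjusted p = 3.73e-07 by edgeR). The other 4 genes were also lower in SD anthers, by less than 2-fold, with log2 fold changes of -0.52 for *BEI*, -0.49 for *BEIIa*, -0.45 for *PHOL* and -0.23 for *ISA1* and edgeR adjusted p of 4.27e-06 to 0.00917. The median log2 fold change of the 8 genes was -0.93, and that of all loci was 0.0049. Without the 12:00 libraries, *PHOH* was 3.58-fold, *ISA3* 3.14-fold and *ISA2* 2.04-fold lower in SD anthers and still called (13.3% of loci called). *BEIIb* was then 1.92-fold lower and no longer passed the fold threshold. *ISA1* turned to a log2 fold change of 0.13 (edgeR adjusted p = 0.12), and *PHOL* was at -0.24 (edgeR adjusted p = 0.0945). *BEI* was at -0.50 (edgeR adjusted p = 0.000116) and *BEIIa* at -0.34 (edgeR adjusted p = 0.00338).

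**Figure D1:**
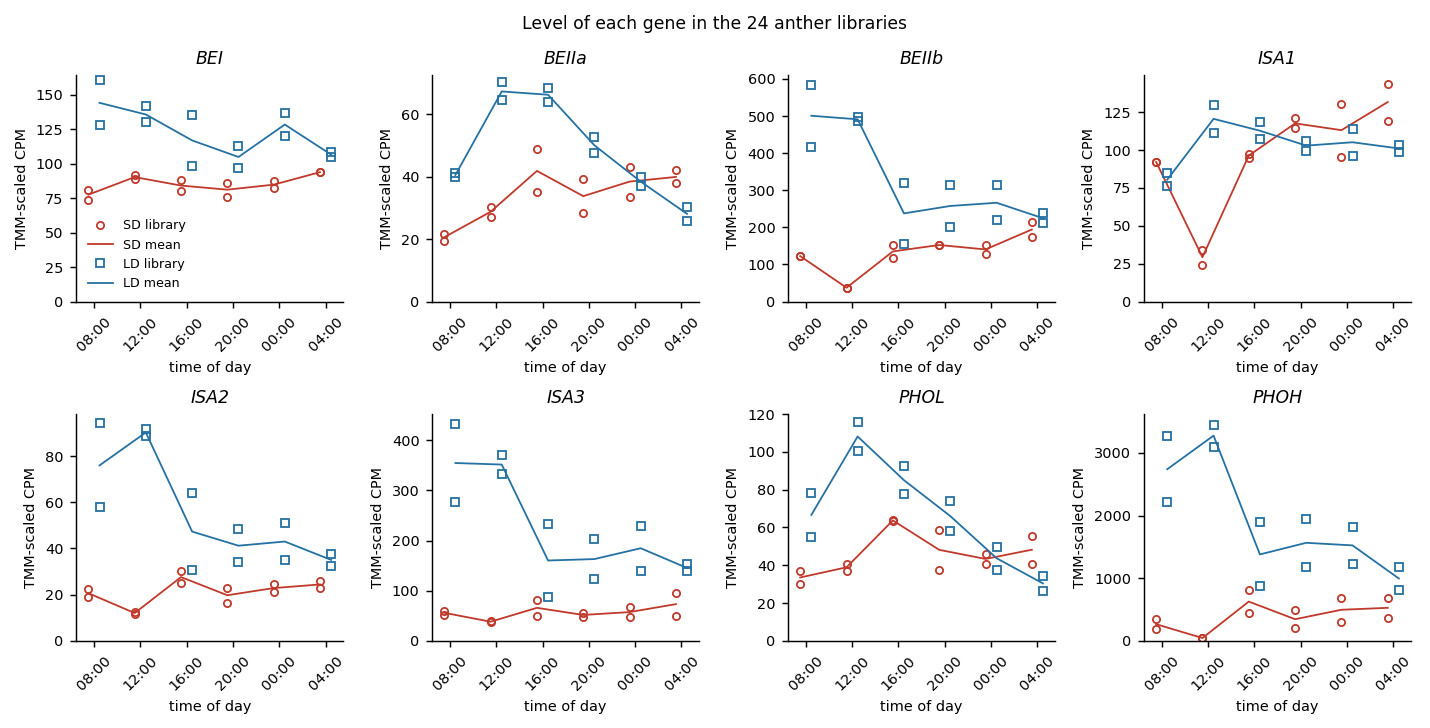
Level of each gene (TMM-scaled CPM, linear axes from 0) by time of day, with SD circles to the left of LD squares, each symbol 1 library and each line through the mean of 2 libraries. *PHOH*, *ISA3*, *ISA2* and *BEIIb* in LD were highest at 08:00 and 12:00, where their SD values were low, and *ISA1* was below the LD range at SD 12:00 alone.

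*BEIIb*, the branching isoform best known from rice endosperm, showed the largest difference among the branching enzymes. The SD libraries held 122 and 123 CPM at 08:00, 37.5 and 36.9 CPM at 12:00, 118 and 152 CPM at 16:00, 153 and 152 CPM at 20:00, 153 and 128 CPM at 00:00 and 213 and 175 CPM at 04:00. The LD libraries held 417 and 584 CPM at 08:00, 486 and 496 CPM at 12:00, 155 and 319.7 CPM at 16:00, 201 and 315 CPM at 20:00, 218 and 314 CPM at 00:00 and 211 and 238 CPM at 04:00. The SD values were lower than both LD values at 5 of 6 time points and overlapped them at 04:00. For all 8 genes, the share of all loci with SD and LD libraries separated likewise was not counted. *BEIIb* was 4.06-fold lower in SD anthers at 08:00 (log2 ratio -2.02 ± 0.24, adjusted p = 0.00193 by edgeR) and 12.8-fold lower at 12:00 (log2 ratio -3.68 ± 0.13, adjusted p = 8.05e-06 by edgeR). From 16:00 to 00:00 its log2 fold change lay between -0.77 and -0.90 and did not pass, and at 04:00 it was -0.23 (edgeR adjusted p = 0.305). With 1 library left out, which leaves 1 library in a group, its log2 fold change at 16:00 ran from -1.24 to -0.19.

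*BEI*, another branching isoform, differed by a small amount, in 1 direction at all 6 time points. It held 73.8 and 81.1 CPM at 08:00, 91.5 and 88.9 CPM at 12:00, 80.0 and 88.1 CPM at 16:00, 75.9 and 86.2 CPM at 20:00, 87.3 and 82.1 CPM at 00:00 and 94.0 and 93.6 CPM at 04:00 in SD libraries. It held 128 and 160.2 CPM at 08:00, 141 and 129.7 CPM at 12:00, 98.1 and 135 CPM at 16:00, 96.7 and 113 CPM at 20:00, 119.6 and 137 CPM at 00:00 and 108 and 104 CPM at 04:00 in LD libraries. Every SD library was below every LD library (highest SD 94.0 CPM, lowest LD 96.7 CPM). With library totals in place of TMM, however, 11 of 12 SD libraries were below the lowest LD library. How many of all loci separated in this way was not counted. Its log2 fold change was largest at 08:00 (log2 ratio -0.89 ± 0.19, adjusted p = 0.0163 by edgeR) and smallest at 04:00 (-0.20), and it stayed under 2-fold at all 6 time points. From 16:00 to 04:00 it also missed the p threshold (edgeR adjusted p of 0.165 to 0.248). At 12:00 it was -0.54 (edgeR adjusted p = 0.00582), and -0.26 with library totals (edgeR adjusted p = 0.142). Without LD replicate 1 at 08:00 the change at that time reached -1.06 and passed (edgeR adjusted p = 0.0397).

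*BEIIa*, the isoform known from leaves and other tissues of rice, passed an edgeR test for a difference between times of day within each photoperiod. SD libraries held 19.5 and 21.6 CPM at 08:00, 27.2 and 30.2 CPM at 12:00, 34.9 and 48.7 CPM at 16:00, 39.2 and 28.3 CPM at 20:00, 43.2 and 33.6 CPM at 00:00 and 42.0 and 37.8 CPM at 04:00. LD libraries held 39.7 and 41.3 CPM at 08:00, 70.1 and 64.3 CPM at 12:00, 63.9 and 68.5 CPM at 16:00, 47.4 and 52.6 CPM at 20:00, 37.0 and 39.8 CPM at 00:00 and 25.9 and 30.2 CPM at 04:00. In SD the mean was highest at 16:00 and lowest at 08:00 (2.03-fold), while in LD it was highest at 12:00, with 16:00 nearly level, and lowest at 04:00 (2.40-fold). The SD libraries therefore lay below both LD libraries at 4 time points, overlapped them at 00:00 and lay above them at 04:00. It was called at 12:00 alone, 2.26-fold lower in SD anthers (log2 ratio -1.18 ± 0.11, adjusted p = 0.000281 by edgeR), and with library totals in place of TMM the change there was -0.90 and missed the fold threshold. At 08:00 its log2 fold change was -0.97 (edgeR adjusted p = 0.00689), under the fold threshold, and ran from -1.04 to -0.90 with 1 library left out. At 04:00 its log2 fold change of 0.49 had an edgeR adjusted p of 0.0438, under the fold threshold.

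Among the debranching enzymes, *ISA3* and *ISA2* were below LD in SD anthers at all 6 time points and *ISA1* was called lower at noon alone. *ISA3* is an isoamylase known mainly for removing branches while starch is degraded. Its SD libraries held 52.0 and 59.8 CPM at 08:00, 38.6 and 37.6 CPM at 12:00, 49.6 and 82.1 CPM at 16:00, 55.1 and 48.2 CPM at 20:00, 46.7 and 67.9 CPM at 00:00 and 96.3 and 50.1 CPM at 04:00. Its LD libraries held 276 and 433 CPM at 08:00, 332 and 371 CPM at 12:00, 88.3 and 232 CPM at 16:00, 123 and 203 CPM at 20:00, 140.1 and 229 CPM at 00:00 and 139 and 152 CPM at 04:00. Both SD libraries were below both LD libraries at all 6 time points, and 11 of 12 SD libraries were below the lowest LD library; SD 04:00 replicate 1 (96.3 CPM) was the exception. *ISA3* was 6.30-fold lower in SD anthers at 08:00 (log2 ratio -2.66 ± 0.27, adjusted p = 0.00104 by edgeR), 8.92-fold lower at 12:00 (log2 ratio -3.16 ± 0.13, adjusted p = 1.26e-05 by edgeR) and 3.18-fold lower at 20:00 (log2 ratio -1.67 ± 0.26, adjusted p = 0.0293 by edgeR). The call at 20:00 was lost without SD replicate 2 (edgeR adjusted p = 0.0517) or LD replicate 2 (edgeR adjusted p = 0.0547). It did not pass at 16:00 (log2 fold change -1.28), 00:00 (-1.67) or 04:00 (-1.01). With 1 library left out, which leaves 1 library in a group, its log2 fold change ran from -1.82 to -0.42 at 16:00. It ran from -2.01 to -1.28 at 00:00 and from -1.56 to -0.59 at 04:00.

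*ISA2* is the isoamylase that lacks activity of its own and joins *ISA1* in a mixed complex. SD libraries held 22.4 and 18.9 CPM at 08:00, 11.5 and 12.5 CPM at 12:00, 24.9 and 30.3 CPM at 16:00, 23.1 and 16.4 CPM at 20:00, 21.1 and 24.6 CPM at 00:00 and 23.1 and 25.7 CPM at 04:00. LD libraries held 57.7 and 94.1 CPM at 08:00, 88.7 and 91.7 CPM at 12:00, 30.8 and 63.8 CPM at 16:00, 34.1 and 48.2 CPM at 20:00, 35.1 and 50.9 CPM at 00:00 and 32.6 and 37.5 CPM at 04:00. The 12 SD and 12 LD libraries did not overlap, also with library totals in place of TMM, and the share of all loci doing so was not counted. *ISA2* was 3.65-fold lower in SD anthers at 08:00 (log2 ratio -1.87 ± 0.25, adjusted p = 0.00334 by edgeR) and 7.26-fold lower at 12:00 (log2 ratio -2.86 ± 0.11, adjusted p = 9.79e-06 by edgeR). At the other 4 time points its log2 fold change ran between -0.54 and -1.07 without a call. With 1 library left out, which leaves 1 library in a group, it ran from -1.21 to -0.15 at 16:00. It ran from -1.35 to -0.81 at 20:00 and from -1.13 to -0.61 at 00:00.

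*ISA1* is the isoamylase that trims branches while amylopectin is made in rice endosperm. SD libraries held 92.1 and 92.1 CPM at 08:00, 34.1 and 24.4 CPM at 12:00, 95.0 and 97.6 CPM at 16:00, 114 and 121 CPM at 20:00, 131 and 95.5 CPM at 00:00 and 119 and 144 CPM at 04:00. LD libraries held 84.5 and 76.4 CPM at 08:00, 111 and 129.7 CPM at 12:00, 107 and 118 CPM at 16:00, 99.6 and 106 CPM at 20:00, 114 and 96.4 CPM at 00:00 and 103 and 98.9 CPM at 04:00. Apart from 12:00, its SD libraries spanned 92.1 to 144 CPM and its LD libraries 76.4 to 118 CPM, and they overlapped. At 12:00 it was 3.99-fold lower in SD anthers (log2 ratio -2.00 ± 0.18, adjusted p = 0.000202 by edgeR), and this was its only call. Both SD libraries were also below both LD libraries at 16:00, with a log2 fold change of -0.22 that did not pass. Both SD libraries were above both LD libraries at 3 time points, with log2 fold changes of 0.18 at 20:00, 0.36 at 04:00 and 0.20 at 08:00 that did not pass.

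*PHOH*, the cytosolic phosphorylase, had the largest difference of the 8 genes. SD libraries held 344 and 187 CPM at 08:00, 44.8 and 44.1 CPM at 12:00, 447 and 806 CPM at 16:00, 489 and 201 CPM at 20:00, 304 and 688 CPM at 00:00 and 689 and 366 CPM at 04:00. LD libraries held 2216 and 3265 CPM at 08:00, 3099 and 3454 CPM at 12:00, 869.8 and 1889.6 CPM at 16:00, 1185 and 1946 CPM at 20:00, 1223 and 1825 CPM at 00:00 and 813 and 1177 CPM at 04:00. No SD library reached the lowest LD library (highest SD 806 CPM, lowest LD 813 CPM), also with library totals in place of TMM. The share of all loci with such a separation was not counted. *PHOH* was 10.3-fold lower in SD anthers at 08:00 (log2 ratio -3.36 ± 0.41, adjusted p = 0.00218 by edgeR) and 71.3-fold lower at 12:00 (log2 ratio -6.16 ± 0.18, adjusted p = 6.00e-06 by edgeR). The log2 fold change was -1.13 at 16:00, -2.19 at 20:00, -1.60 at 00:00 and -0.93 at 04:00, and none of these passed (edgeR adjusted p of 0.178, 0.0533, 0.126 and 0.0813). With 1 library left out, which leaves 1 library in a group, it ran from -1.61 to -0.47 at 16:00 and from -2.98 to -1.68 at 20:00. It ran from -2.36 to -1.13 at 00:00 and from -1.47 to -0.53 at 04:00.

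*PHOL*, the plastidial phosphorylase, resembled *BEIIa* in its timing. SD libraries held 37.1 and 29.9 CPM at 08:00, 37.0 and 40.8 CPM at 12:00, 63.5 and 63.9 CPM at 16:00, 58.8 and 37.5 CPM at 20:00, 46.2 and 40.4 CPM at 00:00 and 55.5 and 40.9 CPM at 04:00. LD libraries held 55.0 and 78.2 CPM at 08:00, 116 and 101 CPM at 12:00, 77.5 and 92.4 CPM at 16:00, 58.0 and 73.9 CPM at 20:00, 37.5 and 49.9 CPM at 00:00 and 26.2 and 34.5 CPM at 04:00. Its mean was highest at 16:00 and lowest at 08:00 in SD (1.90-fold), and highest at 12:00 and lowest at 04:00 in LD (3.56-fold). Unlike for *BEIIa*, the time-of-day test did not pass within SD (edgeR adjusted p = 0.0597), but it passed within LD (edgeR adjusted p = 0.000349). It was called at 12:00 alone, 2.69-fold lower in SD anthers (log2 ratio -1.43 ± 0.12, adjusted p = 0.000171 by edgeR). At 08:00 the log2 fold change was -0.98 (edgeR adjusted p = 0.0194), under the fold threshold, and ran from -1.23 to -0.72 with 1 library left out. At 04:00 both SD libraries were above both LD libraries, with a log2 fold change of 0.65 that did not pass (edgeR adjusted p = 0.0600).

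**Figure D2:**
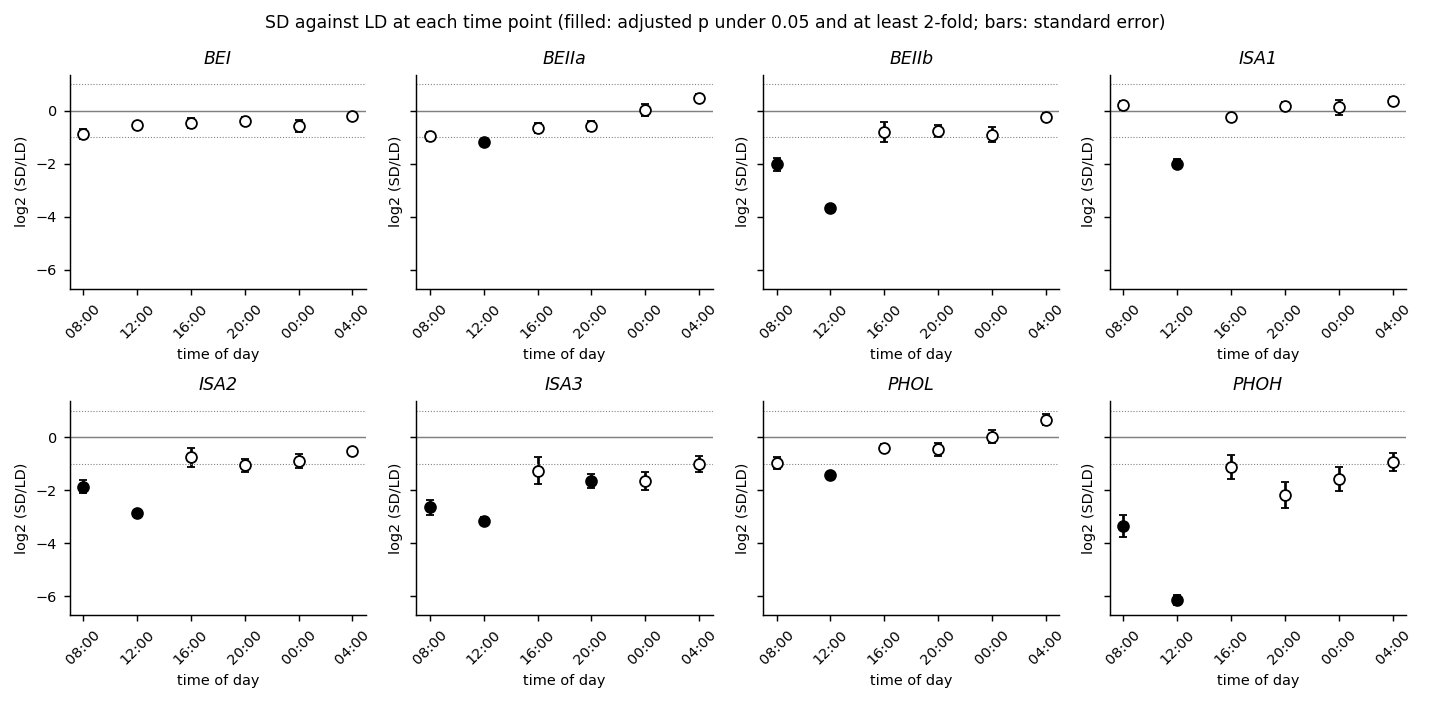
Log2 fold change of SD over LD for each gene by time of day, from edgeR fits of 4 libraries per time point, with bars of 1 standard error, filled symbols for called genes and dotted lines at 2-fold. The lowest values are those of *PHOH* (-6.16) and *BEIIb* (-3.68) at 12:00, and *BEIIa*, *ISA1* and *PHOL* are above 0 at 04:00 without a call.

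Counted by time point, most calls were at 08:00 and 12:00. At 08:00, 4 of 8 genes were called, all lower in SD anthers (*BEIIb*, *ISA2*, *ISA3* and *PHOH*), against 17.7% of loci tested. At 12:00, 7 of 8 genes were called, all lower and all but *BEI*, against 40.0% of loci. The median log2 fold change of the 8 genes was -2.43 at 12:00, against -0.0081 over all loci, and -1.42 at 08:00, against 0.0092. At 16:00, edgeR called none of the 8 genes and 0% of loci (0 of 23466), with 2 of 8 genes and 7275 loci at an unadjusted p under 0.05, while DESeq2 called 1 of the 8 genes, *PHOH*, and 1362 loci. At 20:00, 1 gene was called (*ISA3*, 4.99% of loci). None was called at 00:00 (1.56% of loci) or at 04:00 (15.9% of loci). At 00:00, 5 of 8 genes and 4610 of 23375 loci had an unadjusted edgeR p under 0.05, and DESeq2 called 2 genes and 1854 loci. At 04:00, 6 of 8 genes and 10303 of 23332 loci had an unadjusted edgeR p under 0.05, and DESeq2 called 1 gene and 3443 loci.

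The difference between photoperiods itself changed with the time of day. In a joint fit of the 12 groups, the interaction of photoperiod and time point passed for 7 of 8 genes (adjusted p alone), all but *BEI*, against 48.5% of loci. The smallest edgeR adjusted p was that of *ISA1* (4.72e-05), and that of *BEI* was 0.125. Without the 12:00 libraries 1 gene still passed, *BEIIa* (edgeR adjusted p = 0.0223), against 8.42% of loci, and *PHOL* had 0.0531. Within SD, the time of day passed for 4 genes, *BEIIa*, *BEIIb*, *ISA1* and *PHOH*, against 34.9% of loci, and without 12:00 for *BEIIa* alone (0.0203, 6.20% of loci). Within LD, it passed for 5 genes, *BEIIa*, *BEIIb*, *ISA2*, *ISA3* and *PHOL*, against 38.4% of loci, and without 12:00 for *BEIIa* (0.00373) and *PHOL* (0.00860), against 14.4% of loci. *BEIIa* was thus the gene whose time-of-day difference passed in each of these fits.

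The steps around noon were compared after the values had been seen. In SD, 3 genes were lower at 12:00 than at 08:00 (9.41% of loci called): the log2 ratio of 12:00 over 08:00 was -2.58 for *PHOH*, -1.72 for *BEIIb* and -1.65 for *ISA1*. In SD, 4 genes were higher at 16:00 than at 12:00 (12.6% of loci called): the log2 ratio of 16:00 over 12:00 was 3.82 for *PHOH*, 1.86 for *BEIIb*, 1.72 for *ISA1* and 1.20 for *ISA2*. In LD, none of the 8 genes was called between 12:00 and 08:00 (6.42% of loci called by edgeR, DESeq2 not run). For that step 3 of 8 genes and 6746 of 25498 loci had an unadjusted edgeR p under 0.05. Also in LD, 1 gene, *BEIIb*, was lower at 16:00 than at 12:00, with a log2 ratio of -1.05 (11.2% of loci called). The low point of SD was thus at 12:00 for *PHOH*, *BEIIb*, *ISA1*, *ISA2* and *ISA3* by group means, whereas for *BEI*, *BEIIa* and *PHOL* it was at 08:00. In LD the lowest means were at 04:00 for 6 of the 8 genes, at 20:00 for *BEI* and at 08:00 for *ISA1*.

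Ratios of 2 genes within a library do not depend on the scaling between libraries, and are read here only as changes between libraries because transcript lengths were not used. Counts of the cytosolic over the plastidial phosphorylase, *PHOH* over *PHOL*, were 1.08 to 17.0 in SD libraries (median 7.68) and 11.2 to 41.8 in LD libraries (median 31.8). The SD 12:00 libraries were lowest, at 1.21 and 1.08, against 26.8 and 34.3 in LD at 12:00. At every time point both SD ratios except that of 16:00 replicate 2 (12.6) were below both LD ratios. *BEIIb* over *BEIIa* was 1.38 and 1.22 in SD at 12:00, against 6.94 and 7.71 in LD, and the SD and LD ranges over the day overlapped (1.22 to 6.23 in SD, 2.43 to 14.2 in LD). The mixed-complex partners, *ISA2* over *ISA1*, had a ratio of 0.136 to 0.515 in SD libraries and 0.287 to 1.23 in LD libraries. In SD this ratio was highest at 12:00 (0.337 and 0.515), the time at which counts of both genes were lowest. *ISA3* over *ISA1* was 0.348 to 1.54 in SD libraries and 0.824 to 5.67 in LD libraries. *ISA3* over *ISA2* stayed within a narrower range, 1.95 to 4.17 in SD libraries and 2.87 to 4.79 in LD libraries.

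**Figure D3:**
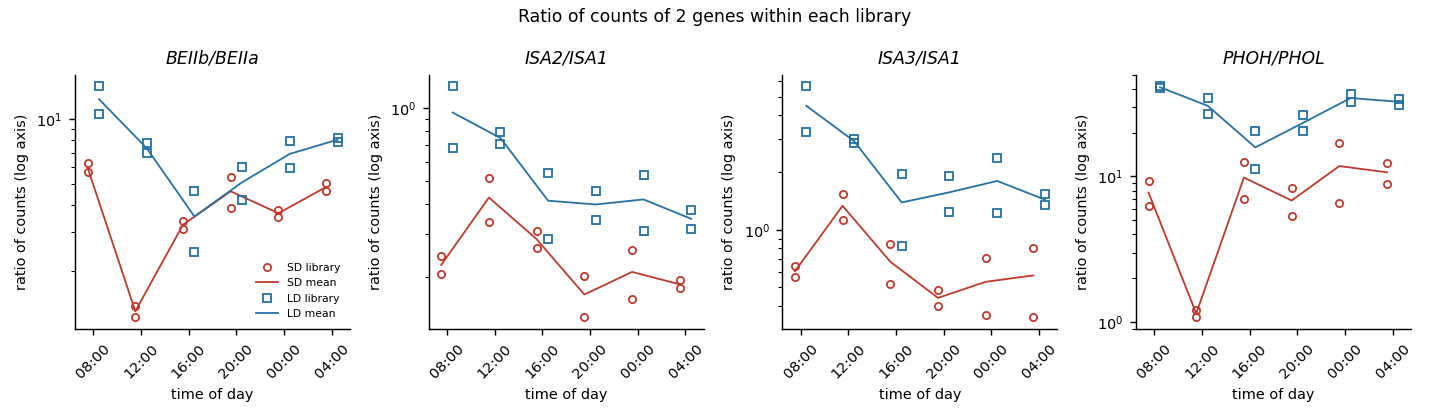
Ratio of the counts of 2 genes within each library (log axes) by time of day, with SD circles to the left of LD squares and lines through the means of 2 libraries. *PHOH* over *PHOL* and *BEIIb* over *BEIIa* were lowest at SD 12:00 (1.08 to 1.38), whereas *ISA2* over *ISA1* and *ISA3* over *ISA1* were at their SD highest there.

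Pollen gene levels were set beside those of the 8 genes within each group, a comparison made after the values had been seen. At 12:00 all 7 pollen markers were called lower in SD anthers, as they were at 08:00, none was called at 16:00 or 00:00, and 3 were called lower at 20:00 and at 04:00. In SD at 12:00, 1 of 7 markers in replicate 2 was at 0 counts, and 3 of 7 in replicate 1 and 6 of 7 in replicate 2 were at 3 counts or fewer. Between the 2 replicates of a group, the one with the higher summed pollen signal also had the higher *PHOH* in 12 of 12 groups, the higher *ISA3* in 11, the higher *BEIIb* and *ISA2* in 10, the higher *PHOL* in 9, *BEIIa* in 8, *BEI* in 7 and *ISA1* in 5. Over 23516 loci with at least 1 CPM in 2 or more libraries the median was 6 groups, and the order was followed by 1.81% of loci in all 12 groups, by 5.13% in 11 or more, by 10.3% in 10 or more and by 17.8% in 9 or more. An expansin gene (LOC_Os10g40090) made up 60.0% to 90.2% of the pollen sum in SD libraries and 68.1% to 76.7% in LD libraries. For the tapetum and exine sum the same count was 4 of 12 for *PHOH* and 2 of 12 for *ISA2*, and ran to 7 for *ISA1*, against a median of 6 over the same loci. The part of pollen content in the photoperiod differences of *PHOH*, *ISA3*, *BEIIb* and *ISA2* was not tested.

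**Figure D4:**
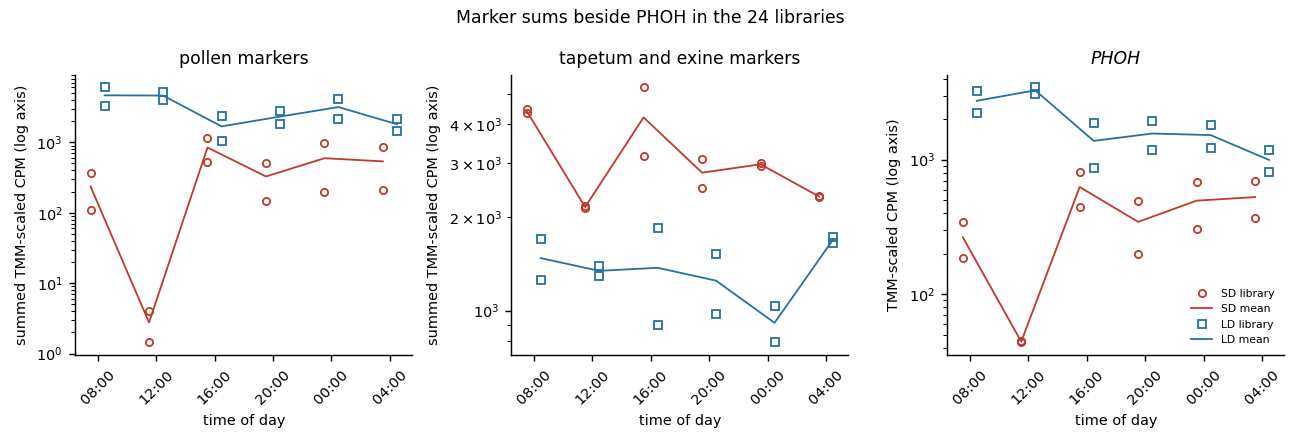
Summed level of 7 pollen markers and of 8 tapetum and exine markers, and level of *PHOH* (TMM-scaled CPM, log axes) by time of day, with SD circles to the left of LD squares and lines through the means of 2 libraries. Both the pollen sum (4.08 and 1.46 CPM) and *PHOH* (44.8 and 44.1 CPM) were lowest in SD at 12:00, and the tapetum and exine sum was above the LD range in every SD library.

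The rest of the starch pathway was read from 34 other loci in 5 lists, most of them annotated in sheets of DEGs that had been chosen on these libraries, so their direction is not independent evidence. Of these, 1 was higher and 10 were lower in SD anthers over the 6 time points, against 16.4% of all loci called, with a median log2 fold change of -0.42. At 12:00, 4 were higher and 18 lower (40.0% of all loci called), and at 08:00, 2 were higher and 12 lower (17.7%). The 4 loci of glucan disproportionation and phosphorylation take part when starch is broken down. All 4 were lower at 08:00 and at 12:00, and 3 were lower over the 6 time points. Of 13 amylases, which release sugars from starch, 1 was higher and 5 were lower over the 6 time points. Of 10 starch synthases 1 was lower, and of 6 loci of ADP-glucose pyrophosphorylase, which makes the sugar donor of starch synthesis, 1 was lower, shares near or below that of all loci. The 4 called loci with the largest change were all amylases. The beta-amylase LOC_Os10g32810 held 2.29 to 659.7 CPM in SD libraries (median 144) and 760.2 to 3505 CPM in LD libraries (median 1955), a log2 ratio of -4.01 ± 0.34 (adjusted p = 1.91e-07 by edgeR). The beta-amylase LOC_Os03g04770 held 7.78 to 485 CPM in SD libraries (median 100.3) and 407 to 2647 CPM in LD libraries (median 1273), which overlapped, with a log2 ratio of -3.67 ± 0.36 (adjusted p = 5.33e-07 by edgeR). The alpha-amylase LOC_Os02g52700 had a log2 ratio of -3.20 ± 0.26 (adjusted p = 1.40e-07 by edgeR). The beta-amylase LOC_Os07g47120 had 1 count over the 12 SD libraries and 1052 counts over the 12 LD libraries, in 11 of which it was detected, a ratio of 1186 with a 95% exact counting interval of 212 to 46894 for LD over SD, which covers counting error only.

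The 8 genes fell into patterns across the 24 libraries, measured by Pearson r of log2(CPM + 0.5) as a description, since all libraries share the photoperiod difference and the low SD 12:00 group. Among the 8 genes, *PHOH* was most like *BEIIb* (r = 0.95), *ISA2* (0.94) and *ISA3* (0.90), and after each photoperiod's mean was removed these were 0.89, 0.85 and 0.73. Many loci outside the list were more like *PHOH*, for which *BEIIb* ranked 301, *ISA2* 364 and *ISA3* 725 of 23515 loci. *BEIIa* and *PHOL* had r = 0.89, ranking 3 for each other, and 0.87 after removing the means. *ISA2* and *ISA3* had r = 0.96 (*ISA3* ranked 60 for *ISA2*), *BEI* was most like *ISA3* (0.92, rank 165) and *ISA1* was most like *BEIIb* (0.64, rank 841). *ISA1* had its lowest value with *BEI* (0.11). Of the 3 loci most like each gene, the sources used here name few. For *PHOH* (r = 0.99 for all 3) they were a beta-galactosidase precursor gene (LOC_Os09g36810), a UTP-glucose-1-phosphate uridylyltransferase gene (LOC_Os02g02560) and *OsGDI3* (LOC_Os03g16900). For *ISA3* (r = 0.99) they included *OsDPE2*, a disproportionating enzyme of the pathway lists, and an amino acid permease gene (LOC_Os10g30090). For *ISA2* (r = 0.98) they included *OsSPS1* (LOC_Os01g69030), a sucrose phosphate synthase, and an aconitate hydratase gene (LOC_Os03g04410). For *BEI*, *BEIIb* and *ISA1* the 3 loci had r of 0.94 to 0.97 and no name.

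**Figure D5:**
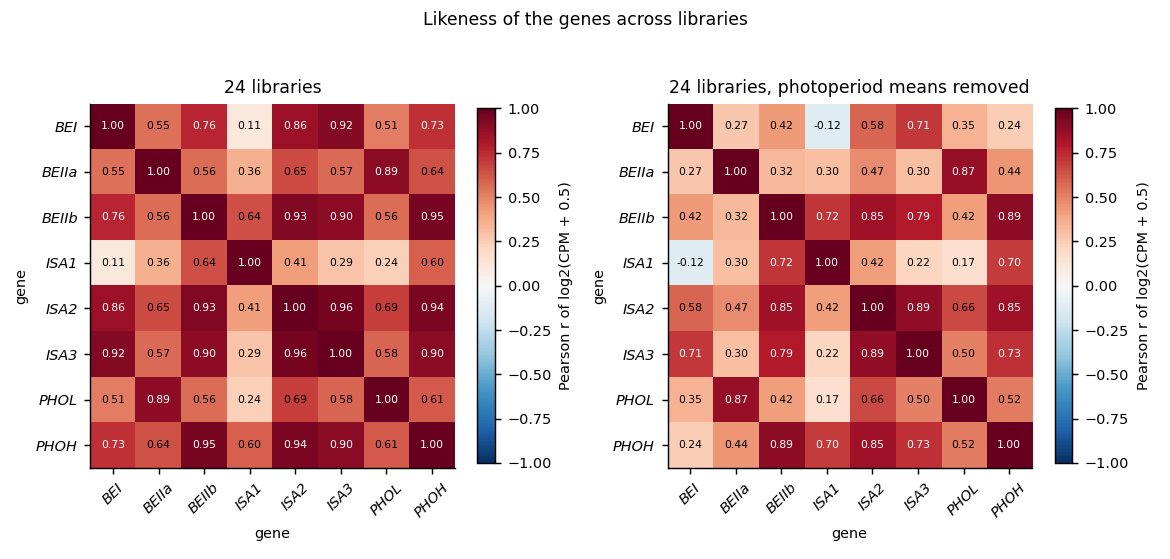
Pearson r of log2(CPM + 0.5) between each pair of the 8 genes over the 24 libraries, as measured (left) and after each photoperiod's mean was removed (right), on a colour scale from -1 to 1. *BEIIb*, *ISA2*, *ISA3* and *PHOH* are alike (r of 0.90 to 0.96 on the left), *BEIIa* and *PHOL* form a pair (0.89), and *ISA1* stands apart from *BEI* (0.11).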

How the data were processed

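RNA from anthers was sequenced by the authors on the Ion Proton platform, and after a quality filter MapSplice placed the reads on the Nipponbare genome of the MSU project, release 7. The authors deposited raw counts per locus in 24 columns, 1 per library, all used. The counting tool, strand use and multi-mapped reads are not given in the sources used here, so reads of near-identical genes may be shared. SD and LD were compared at each time point on 4 libraries with edgeR 4.0.16 in R 4.3.3 (filterByExpr, TMM, quasi-likelihood F-test, Benjamini-Hochberg over all loci tested). The 12-group fit of all 24 libraries gave the average, interaction and time-of-day tests. Standard errors are the absolute log2 fold change over the square root of F. The edgeR fits were tested on simulated data, where most but not all known changes were recovered. In the simulated 12:00 comparison, the share of unchanged loci among the calls was above the nominal false discovery rate. That comparison had 2 libraries a group, as did the tests at each time point.

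Alternatives were DESeq2 1.42.0, RLE factors, library totals, other filters and thresholds, a replicate block, a joint fit and leaving libraries out. Values are given for the 8 listed genes with counts, for the 4 called pathway loci of largest change and for the 3 loci most like each gene where named. Members and lists were chosen with earlier results of these data known, and the steps around noon, the replicate order by pollen signal and the tapetum and exine sum without its most abundant gene were added after seeing the values. Symbols of the listed genes came with their locus IDs, and other names from the study's text and sheets. No sequences, coordinates or transcript lengths were used here.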

Additional observations from a re-analysis of the deposited data

Results flagged for a closer look

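The difference between SD and LD anthers itself differed between time points for 7 of the 8 genes by the interaction test of the 12-group edgeR fit. The adjusted p was 4.72e-05 for *ISA1*, 0.000157 for *BEIIb*, 0.000597 for *BEIIa*, 0.000610 for *PHOH*, 0.00181 for *PHOL*, 0.00285 for *ISA2* and 0.0307 for *ISA3*. Without the 12:00 libraries it was 0.228 for *ISA1*, 0.0768 for *BEIIb*, 0.0223 for *BEIIa*, 0.138 for *PHOH*, 0.0531 for *PHOL*, 0.182 for *ISA2* and 0.244 for *ISA3*, so the call remained for *BEIIa*. The SD 12:00 libraries also held the lowest pollen sums (4.08 and 1.46 CPM), and the part of that in the interaction was not tested. Groups of 2 libraries were too small to look for a library far from its group.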

How the results depend on the processing

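Each of the 8 genes had 245 counts or more in every library, and calls at 16:00, 20:00, 00:00 and 04:00 changed with the test. The number of the 8 genes called, 4 at 08:00, was 7 with no fold threshold. At 16:00 (0) it was 1 with DESeq2 and 2 with the replicate block. At 20:00 (1) it was 3 with DESeq2, with no filter and with the joint fit of 24 libraries, and 0 with glmTreat against 2-fold. At 00:00 (0) it was 2 with DESeq2, the replicate block and the joint fit, and 1 with no filter. At 04:00 (0) it was 1 with DESeq2 and RLE factors and 2 with no fold threshold. The average (4) became 8 with no fold threshold, and time within SD (4) became 7 with no filter. Without 12:00 the interaction (7), time within SD (4) and time within LD (5) became 1, 1 and 2. The share of all loci passing with no fold threshold was not counted. At an unadjusted edgeR p under 0.05 there were 9161 of 23316 loci at 08:00 and 10303 of 23332 at 04:00. For the average there were 15937 of 25498. Leaving out each library in turn gave 4 to 7 at 08:00, 7 to 7 at 12:00, 0 to 3 at 16:00, 0 to 3 at 20:00, 0 to 3 at 00:00, and 0 to 2 at 04:00. The cause was not tested.

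The direction turned for log2 fold changes near 0: at 00:00 *BEIIa* (main 0.021) was -0.014 with DESeq2 and with RLE factors and -0.17 to 0.14 with libraries left out, *PHOL* (main 0.0083) was -0.026 with DESeq2 and with RLE factors, -0.013 in the joint fit and -0.18 to 0.22 with libraries left out, and *ISA1* was -0.12 to 0.28 with libraries left out. Over 6 time points *ISA1* was 0.13 without 12:00. Library totals in place of TMM moved the median of all loci by up to 0.27 (12:00) and gave 6304 higher and 3662 lower calls at 12:00 in place of 4864 and 4687, and 1634 higher and 2231 lower at 04:00 in place of 960 and 2749. Over all loci, 364 calls at 00:00 became 1854 with DESeq2, 1312 with no filter, 3021 with the replicate block, 2598 in the joint fit and 700 with library totals, and 1172 at 20:00 became 1961, 1694, 788, 1776 and 615.

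Replicate numbers did not pair the libraries in the same way at all 6 time points. Deviations of same-numbered SD and LD libraries had correlations of 0.31 at 16:00 and 0.21 at 00:00. At the other time points they ran from -0.29 to 0.053. The replicate block raised the calls over all loci from 0 to 2078 at 16:00 and from 364 to 3021 at 00:00. It lowered them at every other time point, for example from 1172 to 788 at 20:00. The main tests used no replicate block. The replicate block changed no other member count by over 1.5 times.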
